A study of Homo sapiens with 6 samples.

Results

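Feedback regulators of Wnt signalling and regulators of BMP signalling were followed in LS180, an established cell line from a human colorectal adenocarcinoma. The set holds 9 genes chosen by symbol, AXIN2, RNF43, ZNRF3, NKD1, NOTUM, DKK1, APCDD1, BAMBI and BMP4, and all 9 were measured, each by 1 probe set, among 14812 genes in all. BMP4 is itself a BMP ligand, so the set is not made up of inhibitors alone. Of the 6 Affymetrix arrays, 3 came from cells given an siRNA that targeted CTNNB1 (the beta-catenin gene), MYC, or MYU, a long non-coding RNA listed here as VPS9D1-AS1. The other 3 came from cells given control siRNA, 1 array named for each knockdown. All cells are of this 1 line, and no dose or time after transfection was stated in the sources. In their titles, the controls named for CTNNB1 and for MYC both have the number 1 and the control named for MYU has 2, so the first 2 pairs may share a control and their values are set side by side without a measure of overlap. The treatment tag of the CTNNB1 array reads CTNNB2, while its title and source name read CTNNB1.

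In the canonical Wnt pathway, secreted Wnt proteins bind Frizzled and LRP receptors, a cytoplasmic destruction complex stops degrading beta-catenin, and beta-catenin enters the nucleus and joins TCF/LEF factors on target genes. Several of those targets encode proteins that dampen the pathway at the surface, outside the cell or in the cytoplasm, which closes a negative feedback loop. BMP ligands act through receptor kinases and SMAD proteins. In the intestine, Wnt activity is highest at the crypt base, where stem cells reside, and BMP activity is higher towards the differentiated villus or surface epithelium.

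The deposited values were centred within each pair, so the control and the knockdown value of a gene mirror each other around 0 and the level of expression is not known. Differences are knockdown minus control on a log2 scale (log base 2 was assumed), and a gene is counted as apart at 2-fold, which is a difference of 1 or more in either direction. With 1 array on each side there is no replicate spread and no test, so "higher" and "lower" describe these arrays only. As a guide to measurement noise, 85 hair keratin-associated protein genes, which are used in the hair shaft, gave standard deviations of 0.13 (CTNNB1 pair), 0.10 (MYC pair) and 0.10 (MYU pair). Their values ranged from -0.23 to 0.65, from -0.33 to 0.32 and from -0.29 to 0.33 in the same order. Well expressed genes may vary by other amounts, and the number of arrays limits the precision.

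Promoter sequence from RefSeq (GRCh38.p14) was examined for 5 of the 9 genes, DKK1, APCDD1, BAMBI, BMP4 and RNF43, with 8 annotated start sites in all. AXIN2, ZNRF3, NKD1 and NOTUM had no entry among the promoter sequences at hand and were not searched. The 250 bases before each start were searched on both strands for the TCF/LEF letters CTTTGA, the longer form CTTTGAT, which contains the shorter one, and for CACGTG, the E-box letters to which MYC and MAX bind. The DKK1 window is shown because DKK1 stood apart in 2 pairs and its window alone among the 8 held CTTTGA, and the BMP4 stretch because it held the only CACGTG. Capitals mark the matches.
DKK1 (chr10:52314031-52314280, plus strand, 250 bases ending at the base before the start): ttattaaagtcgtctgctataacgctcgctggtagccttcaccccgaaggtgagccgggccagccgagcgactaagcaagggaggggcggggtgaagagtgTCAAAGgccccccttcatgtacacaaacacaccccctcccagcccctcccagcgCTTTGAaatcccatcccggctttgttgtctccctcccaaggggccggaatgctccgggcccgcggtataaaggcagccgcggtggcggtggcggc
BMP4 (chr14:53953461-53953490, minus strand, 95 to 66 bases before the third annotated start): ggcctcggcgctCACGTGactccgaggggc
In the DKK1 window the letters occurred on the minus strand 149 to 144 bases before the start and on the plus strand 95 to 90 bases before it. Among 35116 promoter windows of the same length, 11.2% held CTTTGA at least once and 0.977% held it 2 or more times. CACGTG was present in 6.34% and CTTTGAT in 2.26% of those windows, and CTTTGAT was in 0 of the 8. The other 6 windows, those of APCDD1, BAMBI, RNF43 and the first and second BMP4 starts, held 0 matches. These matches are letters in a window and say nothing of binding, and which start site LS180 cells use was not examined.

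The targeted transcripts were checked first. MYC was 2.27-fold lower with MYC siRNA (-1.18) and 5.21-fold lower with CTNNB1 siRNA (-2.38), and VPS9D1-AS1 had a value of -0.50 in the array with siRNA against it, or 1.41-fold lower. With MYC siRNA it had a value of -0.24, and with CTNNB1 siRNA it was as low as in its own knockdown (-0.53). CTNNB1 itself was not analysed here, since no probe set is listed with it. Markers of other cells were mostly near 0 in the CTNNB1 pair, where LUM, a fibroblast proteoglycan gene, was an exception at 2.78 and CD68, a lysosomal protein gene used as a macrophage marker, another at 2.65. The other 2 of 3 measured fibroblast markers, 2 of 3 leukocyte markers and both endothelial markers lay between -0.04 and 0.05. Of 9 epithelial markers, 4 were at least 2-fold higher there and 0 lower, against 2.8% and 4.14% of all genes, with a median of 0.62. The 4 were KRT20 (4.39), KRT19 (2.09), CEACAM5 (1.11) and VIL1 (1.06), and CDX2 (-0.42) was the 1 marker of the 9 below 0. No levels remain in the table, so whether any of these genes is present in LS180 cells could not be read, and the part of other cells in the results below was not tested.

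With CTNNB1 siRNA the set split by direction. AXIN2, ZNRF3, RNF43 and BMP4 were at least 2-fold lower, DKK1 was at least 2-fold higher, and the other 4 genes lay within 2-fold. Over all 14812 genes 6.94% were at least 2-fold apart in this pair, 4.14% lower and 2.8% higher. The median of the 9 was -0.65, against 0 for all genes, and their values spanned 3.92 log2 units. With MYC siRNA 1 of the 9, DKK1, was 2-fold apart, against 0.857% of all genes apart and 0.412% higher, and the median was -0.20. With MYU siRNA 0 of the 9 were 2-fold apart, against 0.155% of all genes. Their median there was -0.04, and their span was 0.79. At a 1.5-fold threshold the count was 7 of 9 in the CTNNB1 pair, where NKD1 (lower) and BAMBI (higher) were added, against 16.2% of all genes. It was 2 of 9 in the MYC pair, where ZNRF3 was added, against 5.79%, and 0 of 9 in the MYU pair, against 1.88%.

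**Figure D1:**
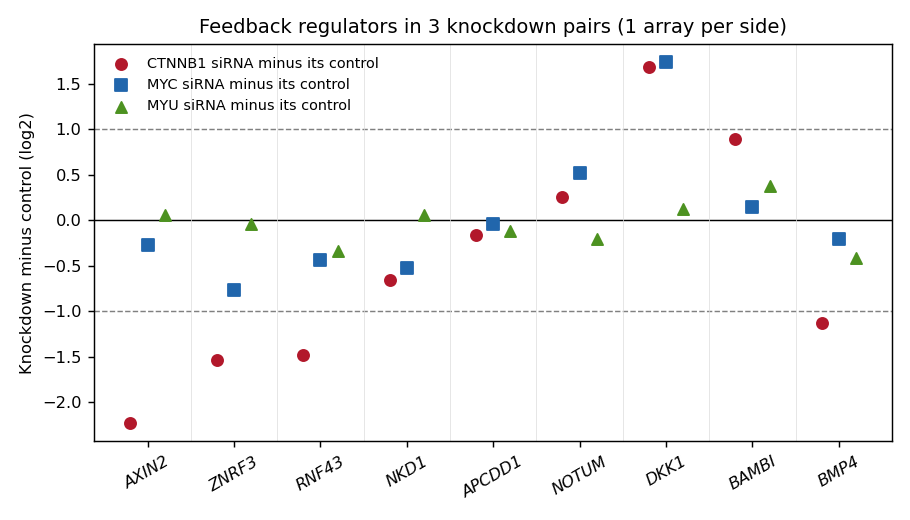
Knockdown minus control (log2, vertical axis) for each of the 9 genes in the CTNNB1 (red circles), MYC (blue squares) and MYU (green triangles) pairs, 1 point per pair, with dashed lines at 2-fold. AXIN2, ZNRF3, RNF43 and BMP4 lie below the lower line in the CTNNB1 pair, DKK1 lies above the upper line in the CTNNB1 and MYC pairs, and all MYU points lie between -0.41 and 0.38.

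Among the regulators inside the cell, AXIN2, a scaffold of the destruction complex and a widely used readout of Wnt activity, differed most in the CTNNB1 pair. Its centred value was 1.11 in the control array and -1.11 in the knockdown array, a difference of -2.23 or 4.68-fold. Counted from the lowest, it stood at place 14 of 14812 genes in that pair. In the MYC pair the control array read 0.14 and the knockdown array -0.14, a difference of -0.27, and 11.8% of all genes lay at or below this value. The MYU pair gave -0.03 and 0.03, a difference of 0.06, which is smaller than the standard deviation of the hair keratin-associated genes. AXIN2 was thus low in the CTNNB1 siRNA array by far more than in either of the other knockdown arrays.

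NKD1 binds Dishevelled, the protein that carries the signal from Frizzled to the destruction complex. Its values were 0.33 and -0.33 in the control and knockdown arrays of the CTNNB1 pair, a difference of -0.65 (1.57-fold lower). The MYC pair read 0.26 and -0.26, a difference of -0.52 (1.44-fold lower), and the MYU pair -0.03 and 0.03, a difference of 0.06. NKD1 thus stayed within 2-fold in each pair, with differences of like size in the CTNNB1 and MYC pairs. In the MYC pair 4.57% of all genes lay at or below its value, and in the CTNNB1 pair 8.61%.

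At the surface, RNF43 and ZNRF3 are related transmembrane ubiquitin ligases that remove Frizzled receptors, an activity that R-spondins relieve through LGR receptors. ZNRF3 read 0.77 in the control and -0.77 in the CTNNB1 siRNA array, a difference of -1.53 (2.89-fold lower). RNF43 read 0.74 and -0.74, a difference of -1.48 (2.79-fold lower). The gap of 0.05 between them is below the 0.13 standard deviation of the hair keratin-associated genes, so these neighbours in the order cannot be ranked. At or below ZNRF3 lay 1.31% of all genes, and at or below RNF43 1.5%.

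In the other pairs the values of the 2 ligases were further apart. With MYC siRNA ZNRF3 read 0.38 in the control and -0.38 in the knockdown array, a difference of -0.76 (1.69-fold lower), which was the lowest value of the set in that pair. RNF43 read 0.22 and -0.22, a difference of -0.44 (1.36-fold lower). With MYU siRNA the order turned, with RNF43 at -0.34 (0.17 in the control and -0.17 in the knockdown array) and ZNRF3 at -0.04 (0.02 and -0.02). In the MYU pair 5.09% of genes lay at or below RNF43, while 34.3% lay at or below ZNRF3.

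APCDD1 encodes a membrane glycoprotein that binds Wnt proteins and LRP receptors and inhibits signalling. It differed little in any pair. Its control and knockdown values were 0.08 and -0.08 with CTNNB1 siRNA, 0.02 and -0.02 with MYC siRNA and 0.06 and -0.06 with MYU siRNA, giving differences of -0.16, -0.04 and -0.12. In the CTNNB1 pair 45.4% of all genes were at least as far from 0.

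Of the secreted antagonists, DKK1, which binds LRP5 and LRP6 and keeps Wnt from engaging them, was the only one of the 9 genes at least 2-fold higher in any pair. With CTNNB1 siRNA it read -0.85 in the control and 0.85 in the knockdown array, a difference of 1.69 (3.23-fold higher), and 0.743% of all genes lay at or above it. With MYC siRNA it read -0.87 and 0.87, a difference of 1.74 (3.33-fold higher). That value was at place 4 from the highest of 14812 genes in the MYC pair. In the MYU pair the arrays read -0.06 and 0.06, a difference of 0.12, and 18.6% of genes lay at or above it.

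The values of DKK1 in the CTNNB1 and MYC pairs are of nearly the same size, although fewer genes were 2-fold apart in the MYC pair. Whether these 2 differences rest on the same control array cannot be told apart from centred values.

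NOTUM, a secreted carboxylesterase that inactivates Wnt proteins by removing their lipid, stayed within 2-fold. It read -0.13 in the control and 0.13 in the knockdown array of the CTNNB1 pair, a difference of 0.26. In the MYC pair it read -0.26 and 0.26, a difference of 0.52 (1.43-fold higher), with 3.15% of genes at or above it. The MYU pair read 0.10 and -0.10, a difference of -0.20. Thus the sign of NOTUM in the CTNNB1 and MYC pairs was opposite to that of AXIN2, ZNRF3, RNF43 and NKD1. However, the NOTUM value in the CTNNB1 pair was within the range of the hair keratin-associated genes, and 14% of all genes lay at or above it. The AXIN2 value in the MYC pair was also within that pair's range of the hair keratin-associated genes.

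On the BMP side, BMP4 and the inhibitor BAMBI lay on opposite sides of 0 in each pair. In the MYC pair both values were within the range of the hair keratin-associated genes. BMP4 read 0.56 in the control and -0.56 in the CTNNB1 siRNA array, a difference of -1.13 (2.19-fold lower), with 3.20% of genes at or below it. The MYC pair read 0.10 and -0.10, a difference of -0.20, and the MYU pair 0.21 and -0.21, a difference of -0.41 (1.33-fold lower). In the MYU pair 3.22% of all genes lay at or below it, and its gap of 0.07 to RNF43 is below the 0.10 standard deviation of the hair keratin-associated genes, so BMP4 and RNF43 cannot be ranked there. BMP4 was therefore at a like place among all genes in the CTNNB1 and MYU pairs, although its difference was far smaller in the latter.

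BAMBI is a transmembrane pseudoreceptor that lacks a kinase domain and blocks signalling by BMP and TGF-beta receptors. It read -0.44 in the control and 0.44 in the CTNNB1 siRNA array, a difference of 0.89 (1.85-fold higher), which is short of the 2-fold mark. With MYC siRNA it read -0.07 and 0.07, a difference of 0.15. With MYU siRNA it read -0.19 and 0.19, a difference of 0.38 (1.30-fold higher), the highest value of the set in that pair, with 2.84% of genes at or above it. RNF43, BMP4 and BAMBI were therefore the 3 members farthest from 0 with MYU siRNA, all of them within 1.5-fold.

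**Figure D2:**
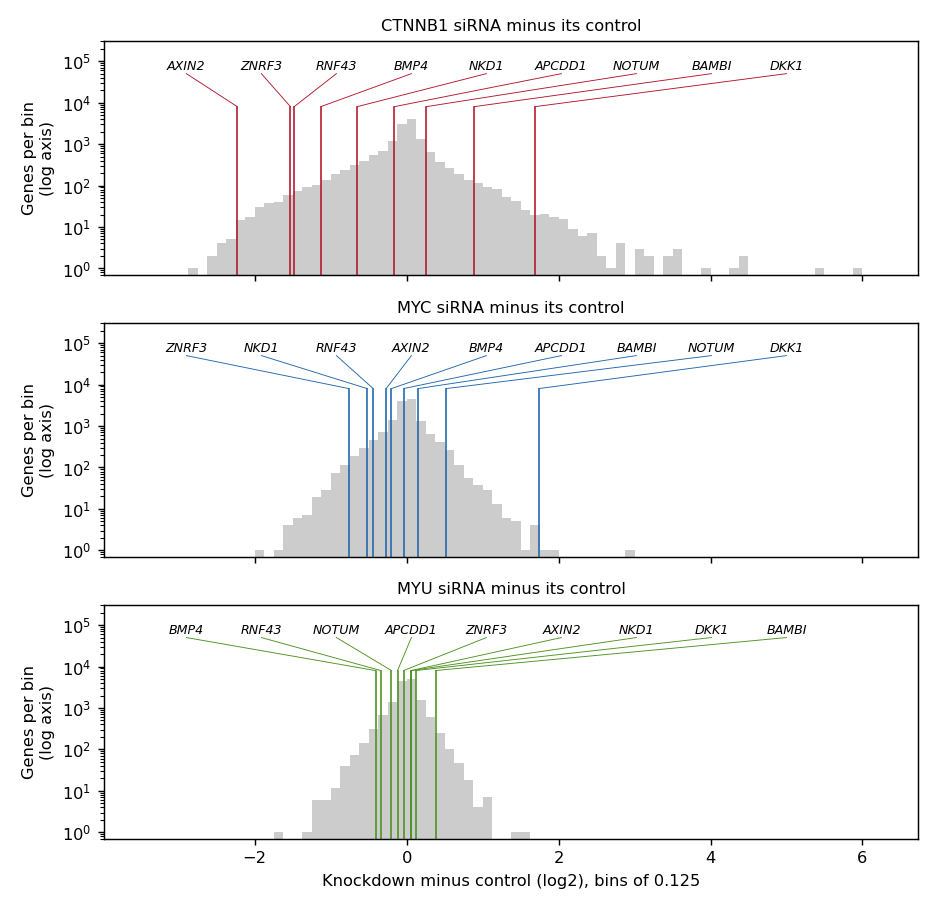
Histograms of knockdown minus control (log2, horizontal axis) over 14812 genes in the CTNNB1, MYC and MYU pairs, with the number of genes per bin on a log axis and a coloured line at each of the 9 genes. AXIN2 lies in the lower tail of the CTNNB1 pair at -2.23, DKK1 in the upper tail of the MYC pair at 1.74, and the MYU lines between BMP4 at -0.41 and BAMBI at 0.38.

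Genes whose differences over the 3 pairs lay nearest to those of AXIN2 were found by Euclidean distance on the log2 scale, with the 9 genes left out. Uncharacterised symbols (LOC, LINC and C#orf#) were left out too, so the places below hold among the other genes. C19orf33, with differences of 1.83, 1.25 and 0.27, was left out in this way. The nearest was URB1, a ribosome biogenesis factor, at a distance of 0.34 with differences of -1.91 (CTNNB1), -0.40 (MYC) and -0.01 (MYU). MIR3689E (0.35), NOP58 (0.39), a core protein of box C/D small nucleolar ribonucleoproteins, MIR3689D2 (0.40) and RSL1D1 (0.42), a nucleolar protein gene, followed. None of these 5 had a value as low as that of AXIN2 in the CTNNB1 pair. For DKK1 the nearest was HEPH, a copper-dependent ferroxidase, at 0.52 with differences of 1.62, 1.24 and -0.02. TRIM31 (0.56), THBS1 (0.59), TMC4 (0.60) and MYOF (0.61) came next. With 3 values per gene, the first 2 of them from pairs that may share a control, this likeness is only a description.

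Among the members themselves, BMP4 and RNF43 were the closest at a distance of 0.43, and RNF43 and ZNRF3 lay 0.44 apart. AXIN2 and DKK1 were the farthest apart, at 4.4.

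Other genes of both pathways were counted from lists that leave out the 9, to be read against the 6.94%, 0.857% and 0.155% of all genes 2-fold apart with CTNNB1, MYC and MYU siRNA. Of 28 further Wnt antagonists measured, among them DKK, SFRP and KREMEN family genes and genes of the destruction complex, TLE5, a co-repressor family gene, was the only one 2-fold apart with CTNNB1 siRNA (1.02). The list's median was 0.02 in that pair, -0.04 with MYC siRNA and 0.01 with MYU siRNA, and 0 of the 28 were 2-fold apart in the last 2. These counts are at or under the shares over all genes. DKK4, a relative of DKK1, had values of -0.29, -0.30 and 0.23. AXIN1, the paralog of AXIN2, had values of 0.32, 0.27 and 0.23, and NKD2, the paralog of NKD1, of -0.06, -0.09 and 0.09. The paralog of APCDD1, APCDD1L, had values of 0.02, 0.17 and 0.06. AXIN2 and NKD1 were thus lower than their paralogs with CTNNB1 siRNA, in a comparison of differences and not of levels.

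Of 19 Frizzled, LRP, LGR and R-spondin genes, the receptors on which RNF43, ZNRF3 and DKK1 act among them, 3 were 2-fold lower and 1 higher with CTNNB1 siRNA, where 4.14% of all genes were lower and 2.8% higher, and the list's median was -0.03. The lower ones were LGR5 (-2.09), FZD3 (-1.33) and FZD6 (-1.06), and the higher one was LGR4 (1.20). The co-receptor genes LRP5 and LRP6 had values of 0.33 and -0.03. In the MYC and MYU pairs 0 of the 19 were 2-fold apart. At 1.5-fold 2 were lower with MYU siRNA, where 1.88% of all genes were apart. Of 25 other Wnt target genes, LGR5 again among them, 6 were 2-fold lower and 2 higher with CTNNB1 siRNA, against 4.14% and 2.8% of all genes, with a median of -0.53. The lowest were MYC, the adhesion receptor gene CD44 (-2.13), LGR5 and CDCA7 (-2.05), and the highest was the tight junction gene CLDN1 (1.75). With MYC siRNA 3 were lower, CDCA7 (-1.32), CEMIP (-1.01) and MYC itself, which is the target of that siRNA. CLDN1 was higher there too (1.09). The list's median was -0.40, with MYC counted in it, and 0.857% of all genes were apart in this pair. With MYU siRNA the transcription factor gene PROX1 was the 1 gene apart (1.06), against 0.155% of all genes, and the median was -0.01. At 1.5-fold the targets apart numbered 13, 7 and 4 in place of 8, 4 and 1. Of all genes 16.2%, 5.79% and 1.88% were apart at that threshold. Lower were 11 of the 13, 6 of the 7 and 2 of the 4.

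Of 14 other genes listed as BMP ligands 1 was 2-fold apart with CTNNB1 siRNA, a share near the 6.94% of all genes. This gene, BMP2, a close relative of BMP4, was 3.32-fold higher with CTNNB1 siRNA (1.73), where BMP4 was 2.19-fold lower. In the MYC and MYU pairs BMP2 had values of -0.21 and -0.19. Over the 14 genes the medians were 0.02 (CTNNB1), -0.08 (MYC) and -0.01 (MYU). The 14 include BMP1, which encodes a protease and not a ligand. Of 15 receptor and SMAD genes listed 7 were measured, BMPR1A, BMPR1B and BMPR2 not among them, and ACVRL1 was the only receptor kinase gene. All 7 were within 2-fold in the 3 pairs, with medians of -0.26, -0.08 and 0.03.

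Of 18 further BMP inhibitors, FSTL3, which binds activins and related ligands, was 2-fold higher with CTNNB1 siRNA (1.35). GREM1, a secreted BMP antagonist, was 2.16-fold higher with MYC siRNA (1.11), where it was the only one apart, and had values of 0.66 with CTNNB1 and -0.62 with MYU siRNA. The list's medians were 0.06, -0.03 and -0.01. The share of inhibitors apart with CTNNB1 siRNA, 1 of 18, is below the 6.94% of all genes. At 1.5-fold the counts were 4, 1 and 2 in place of 1, 1 and 0. The shares of all genes at that threshold were 16.2%, 5.79% and 1.88%. Of the 4 with CTNNB1 siRNA 3 were higher, the 1 with MYC siRNA was higher, and the 2 with MYU siRNA were lower. Of 10 BMP target genes listed 5 were measured, ID1 to ID4 not among them, and 0 of the 5 were 2-fold apart in any pair. SMAD6, an inhibitory SMAD, had values of -0.65, -0.23 and 0.12, and SMAD7 of 0.07, 0.04 and 0.33.

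**Figure D3:**
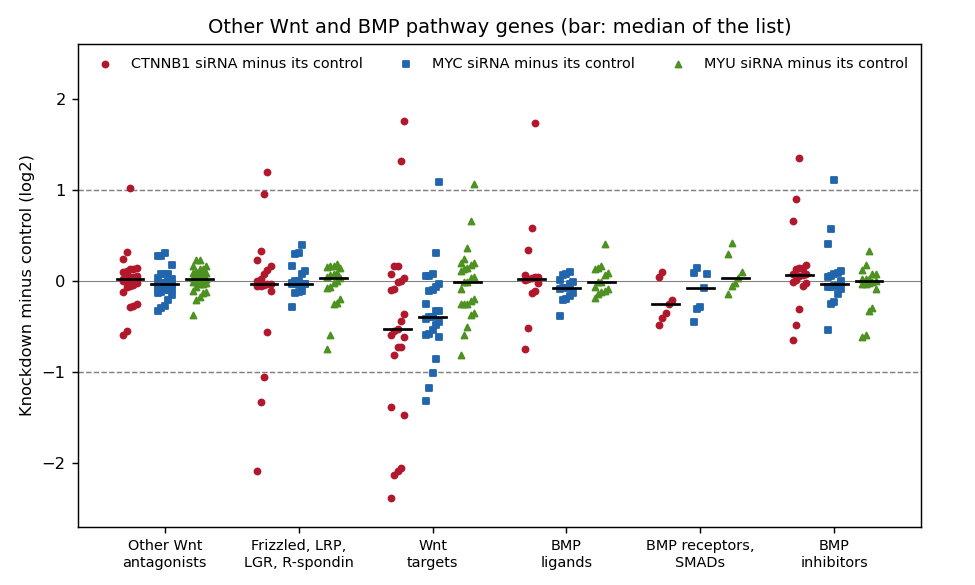
Knockdown minus control (log2, vertical axis) for the measured genes of 6 lists in the CTNNB1 (red), MYC (blue) and MYU (green) pairs, 1 point per gene, with black bars at the list medians and dashed lines at 2-fold. Wnt targets have medians of -0.53, -0.40 and -0.01, while the other Wnt antagonists stay close to 0 with TLE5 at 1.02 as the highest.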

How the data were processed

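Total RNA of 6 LS180 arrays was extracted with TRIsure and labelled with biotin by the Affymetrix procedure, per the labels. The authors deposited values on a log2 scale (the base is not stated and was taken as 2), centred within each pair: a probe set's 2 values sum to 0 within 1e-06. Their background correction, normalization and summarisation were not stated in the sources. Of 44629 probe sets, 15835 carry 1 gene symbol in the probe annotation used, 0 carry several, and 28794 are not listed in it. A gene called not measured here had no listed probe set, which does not show that the array lacks one for it. All 15835 matched the GRCh38.p14 gene table, giving 14812 genes. A gene's value is the mean of its probe sets. Levels, filters on dim probes, limma and quantile normalization could not be had from centred values, and no test was run.

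The members, lists and rules were chosen with earlier results of these data known, and the hair keratin-associated genes after the values were seen. Named genes are the 9 members, the targeted transcripts, up to 4 genes per list and pair at 2-fold, and the 5 nearest to AXIN2 and to DKK1. The nearest genes were taken without LOC, LINC and C#orf# symbols. List genes named within 2-fold were chosen after their values were seen. The code was tested on simulated data. Python 3.11.15, numpy 2.4.6, pandas 2.3.3 and matplotlib 3.10.9 were used.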

Additional observations from a re-analysis of the deposited data

Results flagged for a closer look

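GREM1 is given because its values lay at least 1.5-fold on opposite sides of 0, at 1.11 with MYC siRNA and -0.62 with MYU siRNA. With CTNNB1 siRNA it had a value of 0.66. The difference was not tested, since each knockdown has 1 array. GREM1 was the only such gene of 24 examined. These were the 9 members, the targeted transcripts and up to 4 pathway genes per list and pair at 2-fold. The remaining pathway genes and the cell markers were not screened, and some of them meet the same rule. OLFM4, a listed Wnt target, had values of -0.59 with CTNNB1 siRNA and 0.66 with MYU siRNA. The epithelial marker KRT20 had 4.39 with CTNNB1 siRNA, 1.16 with MYC siRNA and -0.73 with MYU siRNA.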

How the results depend on the processing

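All 27 member differences and the 3 counts of members 2-fold apart kept their direction and count with the probe set nearest to 0, with the one farthest from 0 and with each array centred on its median. The first 2 cannot change a member, since each has 1 probe set, and centring moved the CTNNB1 pair by -0.0077 and the others by 0. At 1.5-fold the count of members apart was 7 in place of 5 with CTNNB1 siRNA and 2 in place of 1 with MYC siRNA, and with MYU siRNA it was 0 at either threshold. With protein-coding genes alone as background, 8.3%, 1.02% and 0.16% were 2-fold apart. Of 21 list counts, 9 moved by more than 1.5 times at the 1.5-fold threshold and 0 under the other settings. No paired analysis was possible because each pair holds 1 knockdown and 1 control array, and leaving out an array removes the pair.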
